A study of Saccharomyces cerevisiae with 14 samples.

Results

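The CUP1 array is the tandem pair CUP1-1 and CUP1-2 on chromosome VIII of budding yeast, 2 of the 6477 genes in the annotation used here. The locus was selected on its measured score: its region has one of the highest Rad52 peak scores in wild type. Rad52 works in homologous recombination and assembles at breaks, and the study sequenced DNA precipitated with it as a readout of damage from DNA-RNA hybrids. Every peak that overlapped positions 210000 to 218000 of chromosome VIII was collected from the peak lists of all 14 libraries. This gave 15 peaks out of 7176 nuclear peaks in the series.

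Tagged strains that also lacked RNase H were h1D-h2D Sen1-AID, with 2 libraries, and h1D-h2D Top1-AID, with 2. Sen1-AID had 2 libraries, Top1-AID 1, h1D-h2D 2 and WT 2. All of these 11 libraries, WT included, came from the background written as 288C in the labels and received 0.5 µM auxin for 4 h. AID is a degron tag that lets auxin trigger the breakdown of the tagged protein, here the DNA-RNA helicase Sen1 or the topoisomerase Top1. h1D-h2D was read as the loss of the RNase H genes RNH1 and RNH201, which the design text names, and for h1D-h2D Top1-AID the titles give the tag while the genotype label reads h1D-h2D_Top1. Gal-HO galactose, with 2 libraries, and Gal-HO dextrose, with 1, came from the JKM background, which makes the HO endonuclease in 2% galactose and received no auxin by its labels. The labels do not tell whether replicates came from separate cultures, and p-values over libraries therefore measure only the spread between these samples, which may be technical.

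CUP1 encodes a metallothionein, a small cysteine-rich protein that binds copper ions and protects the cell from them. The activator Cup2, also called Ace1, switches it on when copper is abundant, and the heat shock factor Hsf1 can activate it too. The array is a classic case of gene amplification: yeast strains and laboratory isolates carry different numbers of tandem copies, and the reference genome shows a pair. Reads from all copies of a cell can only be placed on that pair, so the number of copies and the amount of Rad52 on each copy cannot be told apart, and neither can CUP1-1 and CUP1-2.

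In the R64 annotation, which is the sacCer3 build of the files, CUP1-1 (YHR053C) lies at 212535–212720 and CUP1-2 (YHR055C) at 214533–214718, each a coding gene of 186 bp. Their starts are 1998 bp apart. The non-coding RNA genes RUF5-1 and RUF5-2 overlap them with the same spacing of 1998 bp, and so do the small coding genes YHR052C-B and YHR054C-B. YHR054C (213185–214249) begins 464 bp beyond CUP1-1, and RSC30 (215183–217834), which encodes a subunit of the chromatin remodelling complex RSC, begins 464 bp beyond CUP1-2. CIC1 (210848–211978), a ribosome assembly factor, is the last gene on the other side.

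Every library had a single peak that spanned both CUP1 genes without a break. In h1D-h2D Sen1-AID the peak ran over 211958–216540 in replicate 1 and 211953–216548 in replicate 2. In h1D-h2D Top1-AID it ran over 211892–216594 and 211885–216527, and in Sen1-AID over 211934–216584 and 211886–216543. The 6 intervals of these depleted strains therefore began in the last bases of CIC1 and ended inside RSC30.

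The remaining auxin libraries had the same outline, with 1 exception. Top1-AID had its peak at 211905–216621, h1D-h2D replicate 1 at 211962–216521, and WT at 211889–216596 and 211913–216581. In h1D-h2D replicate 2 the peak ran over 212203–216069, so it began 224 bp beyond the end of CIC1 and was 3867 bp wide. In the JKM background the peaks lay at 212028–216319 and 211953–216561 in Gal-HO galactose and at 211936–216605 in Gal-HO dextrose. Replicate 1 of Gal-HO galactose was again shorter, at 4292 bp, while the other 12 libraries had widths between 4560 and 4717 bp.

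**Figure D1:**
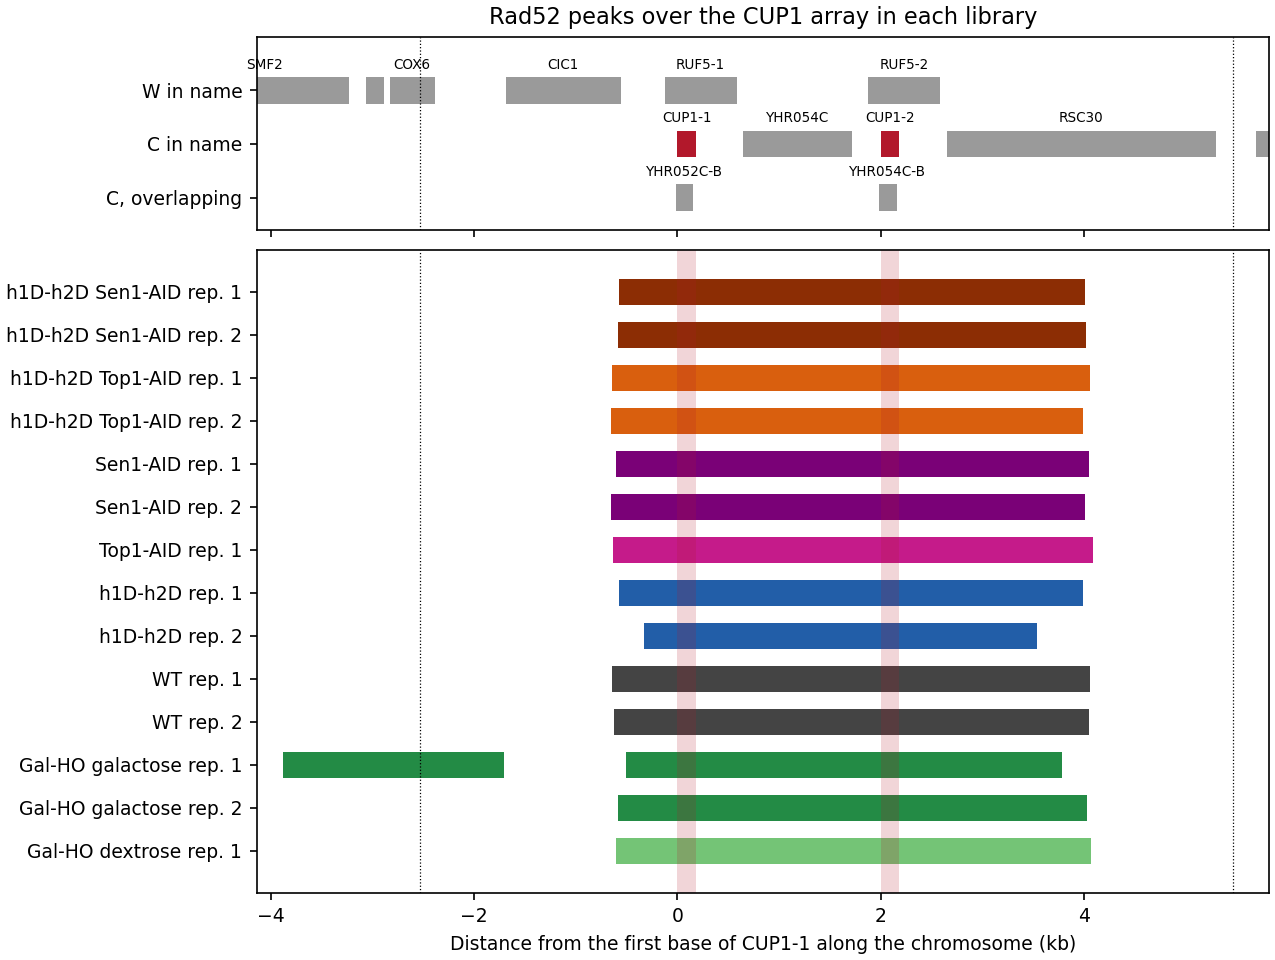
Peaks in the window (dotted lines) for each library, one row per library and colored by group, against distance in kb from the first base of CUP1-1. The genes are drawn above by the strand letter of their systematic name, with the CUP1 genes in red, and the peak spans both CUP1 genes in all 14 libraries, with shorter bars in h1D-h2D replicate 2 and Gal-HO galactose replicate 1.

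Of the genes in the window and 5 kb on either side, 7 were covered along their whole length in all 14 libraries: both CUP1 genes, both RUF5 genes, YHR052C-B, YHR054C-B and YHR054C. CIC1 had a peak in 12 libraries, over at most 94 of its 1131 bp. RSC30 had one in all 14, over 887 to 1439 of its 2652 bp with a median of 1372 bp. This is the part of RSC30 next to CUP1-2, where a gene with C in its systematic name has its 3′ end. RSC30 begins 464 bp beyond CUP1-2, as YHR054C (1065 bp) does beyond CUP1-1. Sequences were not used, so whether reads here are unique to RSC30 or also match YHR054C was not tested.

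Beyond these genes the chromosome was bare. CPR2, MED6, FYV4, VMA22, GIC1 and RPP1 on the RSC30 side had no peak in any library, nor had YHK8 and FSH1 on the CIC1 side. The next peak beyond RSC30 was 18796 to 164516 bp away, depending on the library. On the CIC1 side the next peak was 34137 to 83955 bp away in 13 libraries and 1198 bp away in Gal-HO galactose replicate 1. There a second, low-scoring peak at 208658–210829 (score percentile 9.47) covered COX6, a subunit of cytochrome c oxidase, YHR050W-A, and part of SMF2, a divalent metal transporter.

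The peak was wide for this series. Its median width over the libraries was 4647 bp, and 2 repeat spacings make 3996 bp. Of 970 regions made by merging the peaks of all libraries, 89 (9.18%) had a peak in every library, and 72 of these had exactly 1 peak per library. Among the 72, the array had the largest median width, where the median over the regions was 2184 bp. Within the full list of each library, however, the array peak ranked between 5 and 68 by width. Wider peaks were thus present in every library.

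The edges of the peak varied less between libraries than those of most such regions. The start had an SD of 83.0 bp and the end an SD of 148 bp over all 14 libraries, against medians of 323 and 308 bp over the 72 regions. These values were the 16th and 22nd smallest of the 72. Without h1D-h2D replicate 2 and Gal-HO galactose replicate 1 the SDs of the array were 30.4 and 32.8 bp. These libraries were left out because its peak was shorter there, so the lower SDs follow from that choice. Both ranked 1 among the 72 regions, smallest first, a place that the choice set in part and that is not a finding.

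**Figure D2:**
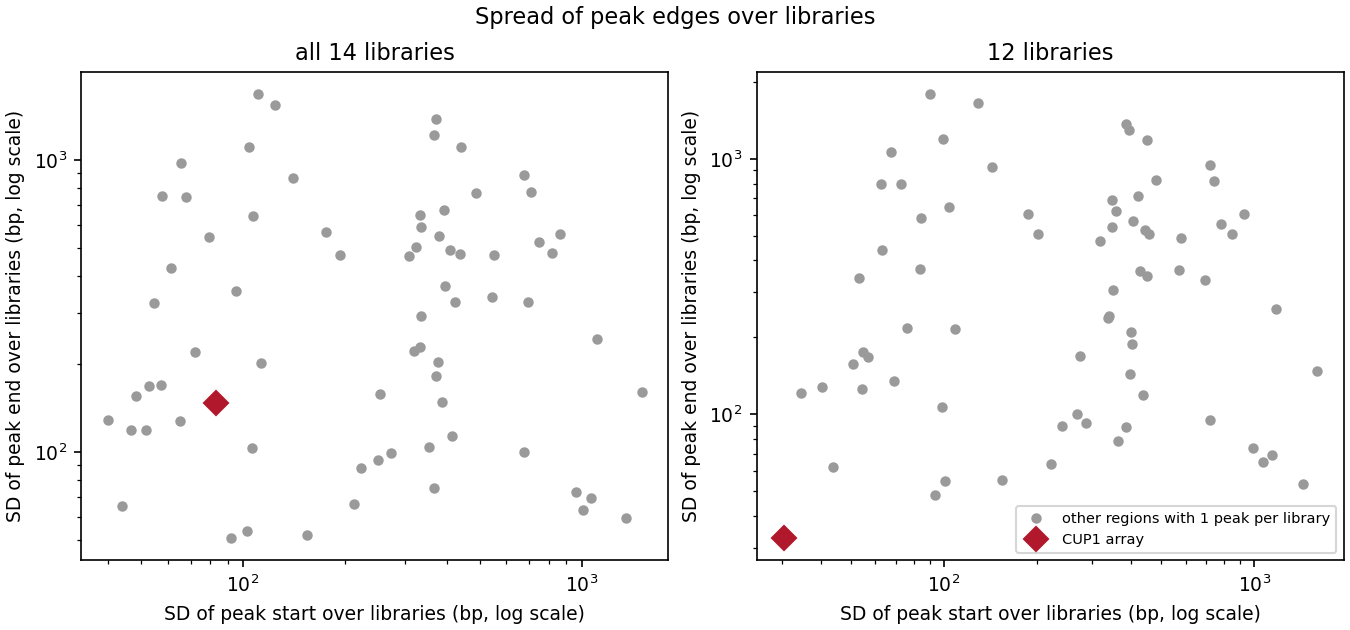
SD of the peak start against SD of the peak end over libraries, in bp on log axes, for the 72 regions with 1 peak in every library, over all 14 libraries (left) and over the 12 without h1D-h2D replicate 2 and Gal-HO galactose replicate 1 (right). The array (red diamond) is among the less variable regions on the left, and its place on the right is set in part by leaving out the libraries where its own peak was shorter.

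The score of a peak is the authors' own value, with no stated scale, so it was used only as a rank within its list. A score percentile is the mid-rank of a peak among the nuclear peaks of the same library, and a list of n peaks cannot give a percentile of exactly 100. List lengths ran between 254 and 731 nuclear peaks, and read depth is unknown.

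In the combined mutants the array carried the top or the next highest peak of the whole list. In h1D-h2D Sen1-AID it ranked 1 of 286 and 1 of 305 peaks, both at percentile 99.8. In h1D-h2D Top1-AID it ranked 1 of 282 and 2 of 254, at percentiles 99.8 and 99.4. Within replicate 2 of that strain its score was 994.19, well below the highest of the list, 2204.79 at the region of YLR162W and RRT15. Within h1D-h2D Sen1-AID replicate 1 its score was 2022.97, while the highest score elsewhere in that list was 1378.07, at the region of RNH201, LAT1, TOM7 and RPL16B. That peak, at XIV 491165–494762, covered the last 76 of the 924 bp of RNH201, and the one in replicate 2 the last 87 bp. No library had a peak elsewhere in RNH201 or in RNH1, and peak lists cannot show whether these genes are deleted.

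The single mutants were less alike. Sen1-AID had the array at rank 22 of 731 and rank 2 of 454, percentiles 97.1 and 99.7. Top1-AID had it at rank 1 of 551, percentile 99.9. In h1D-h2D it stood at rank 53 of 634 in replicate 1, percentile 91.7, and at rank 305 of 578 in replicate 2, percentile 47.3, near the middle of that list.

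In WT, whose score chose the locus, the array ranked 4 of 666 and 10 of 617, at percentiles 99.5 and 98.5. The mean of 98.97 put it at rank 5 among the merged regions. The next above was the region of RPL8A, a large ribosomal subunit protein, at 99.23, and the next below that of YEF3, a translation elongation factor, at 98.49. Above RPL8A stood TEF1 (another elongation factor), ENO2 (the glycolytic enzyme enolase) and ADH1 (alcohol dehydrogenase). These WT places are a description of the choice and not a finding.

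Gal-HO galactose had the array at rank 273 of 544 in replicate 1, percentile 49.9, and at rank 6 of 637 in replicate 2, percentile 99.1. Gal-HO dextrose had it at rank 2 of 637, percentile 99.8. The galactose libraries thus lay both far below and close to the dextrose library, and with 1 dextrose library no test of galactose was made.

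**Figure D3:**
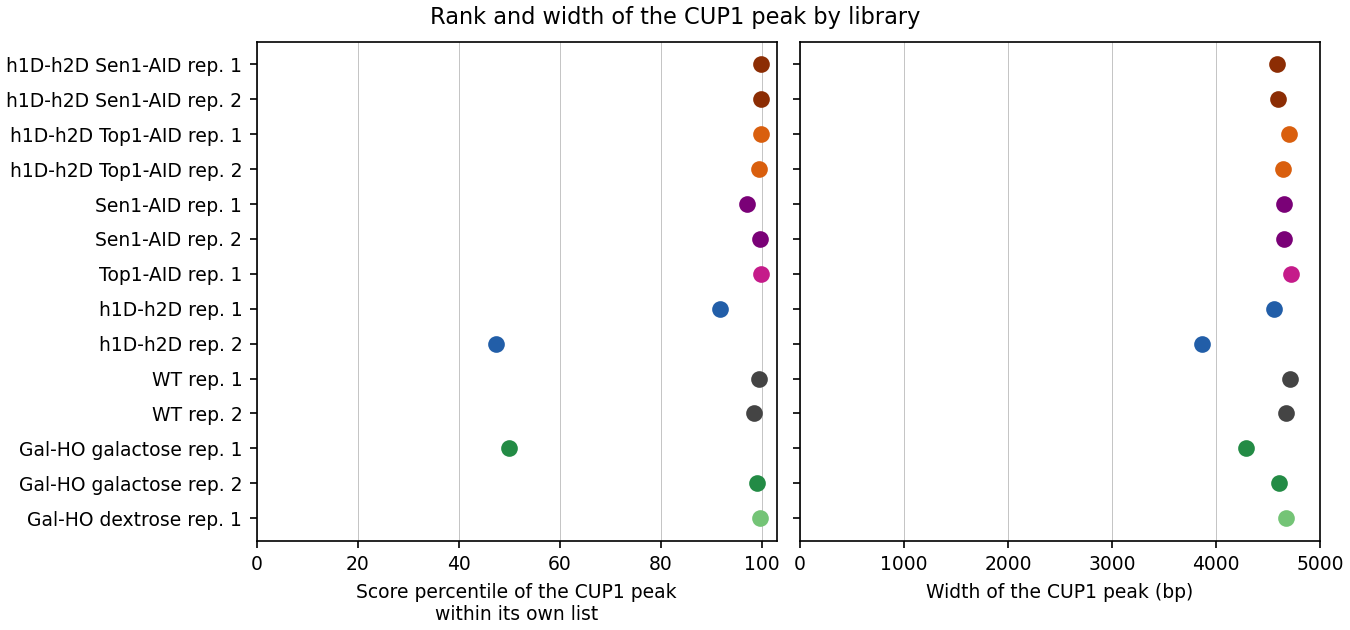
Score percentile of the CUP1 peak within its own list (left) and its width in bp (right), one point per library, colored by group. In 12 libraries the percentile lies between 91.7 and 99.9 and the width between 4560 and 4717 bp, while h1D-h2D replicate 2 and Gal-HO galactose replicate 1 lie apart on both axes.

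By group mean the percentiles ordered as Top1-AID (99.9, 1 library), h1D-h2D Sen1-AID (99.8), Gal-HO dextrose (99.8, 1 library), h1D-h2D Top1-AID (99.6), WT (98.97), Sen1-AID (98.4), Gal-HO galactose (74.5) and h1D-h2D (69.5). Their SDs, with n = 2, were 0.0077 in h1D-h2D Sen1-AID, 0.292 in h1D-h2D Top1-AID, 0.717 in WT, 1.85 in Sen1-AID, 34.8 in Gal-HO galactose and 31.4 in h1D-h2D. No neighbours in this order can be shown to differ, because the smallest p of an exact permutation test with 2 libraries a side is 0.333. The 2 lowest means each rest on 1 low library.

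Compared over groups, the difference between replicates at the array was largest in h1D-h2D and Gal-HO galactose. Between the h1D-h2D libraries it was -44.4 percentile points, replicate 2 minus replicate 1, where the median absolute difference over the 522 shared regions was 9.76 points and 21 regions (4.02%) differed by more. Of the 52 other regions at or above the array's percentile in replicate 1, 1 was as low as the array in replicate 2, at III 1–1478 with no annotated gene. Between the Gal-HO galactose libraries the difference was 49.2 points, where the median over 487 regions was 12.2 and 24 regions (4.93%) differed by more. In the other 4 groups with a pair of libraries it was between -1.0 and 2.6 points.

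TEF1 and ADH1 kept a high rank in the 2 libraries where the array was low. TEF1 stood at percentile 99.0 in h1D-h2D replicate 2 and 98.4 in Gal-HO galactose replicate 1, and ADH1 at 99.6 and 97.2. Of the 32 shared regions at or above percentile 95 in Gal-HO galactose replicate 2, however, 2 were below 60 in replicate 1. They were the array and the region of SNR61, SNR55, SNR57, RPS25B and NUP2, which stood at 59.1 in replicate 1 and 96.8 in replicate 2. In the other direction, of 27 shared regions at or above 95 in replicate 1, 9 were below 60 in replicate 2. Peaks were narrow in the 2 libraries where the array was low, with list medians of 1505 and 1550 bp. But Sen1-AID replicate 2 and h1D-h2D Top1-AID replicate 2 had still narrower peaks, at 1376 and 1400 bp, and there the array stood at 99.7 and 99.4. A part of peak width in the low ranks was not tested.

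**Figure D4:**
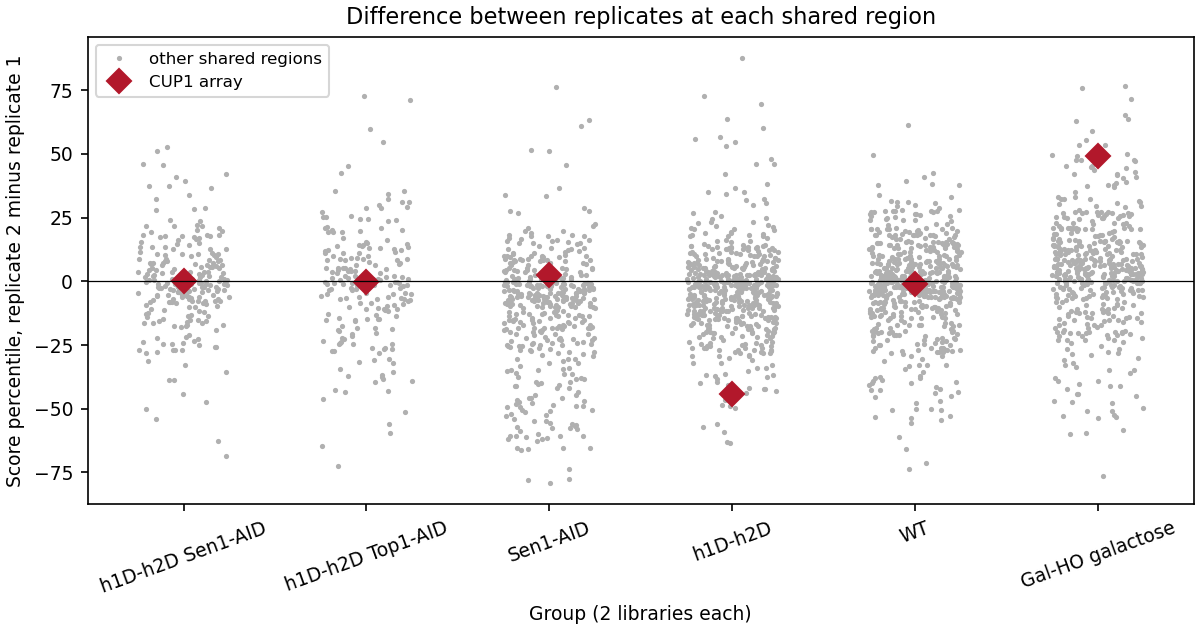
Difference in score percentile between the replicates of a group, replicate 2 minus replicate 1, at every region with a peak in both libraries (grey points, spread sideways at random) and at the CUP1 array (red diamonds). The diamond lies near 0 in 4 groups, at -44.4 in h1D-h2D and at 49.2 in Gal-HO galactose.

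The main question of the series is what the joint loss of RNase H with Sen1 or Top1 does to Rad52 binding. For the array this was tested over the non-WT auxin libraries, since WT chose the locus, with exact two-sided permutation tests of the difference in means. The combined mutants covered 4631 ± 54.3 bp of the window (SD, n = 4), and Sen1-AID, h1D-h2D and Top1-AID together covered 4491 ± 353 bp (SD, n = 5). The difference of 141 bp was within the spread (exact p = 0.770, adjusted p = 0.949 over 826 regions). By the same unadjusted test 33.7% of all regions passed 0.05. Mean covered length was lower in the combined mutants at 82.0% of regions, with a median difference of -728 bp. A library without a peak counted as 0 bp, so these values include missing peaks as well as narrower ones. The combined mutants had the shorter lists, with 254 to 305 nuclear peaks against 454 to 731 in the other strains.

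Its percentile was 99.7 ± 0.209 in the combined mutants (SD, n = 4) and 87.1 ± 22.5 in the other strains (SD, n = 5). The difference of 12.6 points was within the spread (exact p = 0.238, adjusted p = 0.410). Of all regions 32.1% passed the unadjusted threshold, and the median difference was -15.1 points, again with 0 for a missing peak. Percentiles in the combined mutants lay between 99.4 and 99.8, inside the range of 47.3 to 99.9 in the others. Without h1D-h2D replicate 2 the differences were -15.2 bp and 2.63 points (exact p = 0.771 and 0.257), so the direction for length and most of the percentile difference rest on that library. No region passed the adjusted threshold of 0.05 in any of the 6 comparisons of this kind. The numbers with an unadjusted p under 0.05 were 278, 265, 37, 49, 26 and 24. With so few libraries, a region can pass the adjusted threshold only if many others reach the smallest possible p too. The lack of passing regions therefore does not show that no region changed.

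Sen1 depletion, with or without RNase H, was set against the other non-WT auxin libraries. The 4 Sen1-depleted libraries covered 4622 ± 38.0 bp, and the 5 others 4498 ± 358 bp (SD), a difference of 124 bp (exact p = 0.881, adjusted p = 1.00, with 4.48% of regions under 0.05 unadjusted). Percentiles were 99.1 ± 1.36 in the Sen1-depleted libraries and 87.6 ± 22.8 in the others, a difference of 11.5 points (exact p = 0.468, adjusted p = 0.844, background 5.93%). Neither was larger than the spread, and without h1D-h2D replicate 2 the differences were -33.8 bp and 1.38 points.

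The RNase H-deficient libraries were pooled over strains with and without a tag and compared with the remaining tagged strains. With WT left out, h1D-h2D had no untagged partner that kept RNase H. The pooled differences therefore mix RNase H loss with the lack of Sen1 or Top1 depletion. Where the tag was matched, Sen1 strains had mean percentiles of 98.36 with RNase H and 99.83 without, and 4654 and 4590 bp covered. Top1 strains had 99.91 (1 library) and 99.62, and 4717 and 4673 bp. The array had rank 1 in Top1-AID and in h1D-h2D Top1-AID replicate 1, so these 2 percentiles differ only by list length. The matched strains were not tested. The 6 RNase H-deficient libraries covered 4492 ± 310 bp and the 3 others, Sen1-AID and Top1-AID, 4675 ± 36.3 bp (SD), a difference of -183 bp (exact p = 0.381, adjusted p = 0.688, background 3.15%). Their percentiles were 89.7 ± 21.0 and 98.9 ± 1.58, a difference of -9.22 points (exact p = 0.655, adjusted p = 0.890, background 2.91%). Without h1D-h2D replicate 2 these became -58.3 bp and -0.757 points. These 3 comparisons share libraries, and the smallest p they allow is 0.00794 for 4 against 5 libraries and 0.0119 for 6 against 3.

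By the median of its percentile over all 14 libraries, the array ranked first of the 970 regions, at 99.4. By its lowest percentile, 47.3, it ranked 29. Both WT libraries, whose scores chose the locus, enter these ranks. Over the 12 libraries without WT its median was 99.5, again at rank 1.

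The regions most like the array over the 14 libraries, by the mean absolute difference in percentile, were led by TEF1 with 8.62 points and ADH1 with 8.64. TDH3, the glycolytic enzyme glyceraldehyde-3-phosphate dehydrogenase, followed with 9.05. The ribosomal protein genes RPL3 and RPL8A both had 11.4. All 5 had a peak in every library, and in h1D-h2D replicate 2 they stood between 96.5 and 99.6, well above the array. TEF1 varied between 97.8 and 99.9 over the libraries, and the array lay below that span in both h1D-h2D libraries, Sen1-AID replicate 1 and Gal-HO galactose replicate 1.

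Of 20 other genes of copper handling, 9 (45.0%) had a peak in at least 1 library and 11 in none, close to the 43.1% of all 6431 nuclear genes with one. Between 1 and 8 of the 20 carried a peak in a library, while 8.85 to 29.6% of nuclear genes did. In h1D-h2D Sen1-AID 1 and 3 genes of the list had a peak, where 12.3 and 12.9% of all genes did. In WT it was 8 and 5 genes of the list, where 27.5 and 23.2% of all genes had one.

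Peaks were absent in every library from CUP2, the activator of CUP1, and from MAC1, the activator of copper uptake genes. CRS5, a second metallothionein gene, had none either. Of the genes for copper delivery, ATX1, CCC2 and COX17 were bare, while CCS1 had a peak in 2 libraries. CUP9, PCA1, SLF1, FRE2 and FRE7 were bare too.

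CTR2, a vacuolar copper transporter, was the 1 list gene with a peak in all 14 libraries (percentiles 64.6 to 99.9), but it shares that peak with ENO2. SOD1, the copper-zinc superoxide dismutase, had a peak in 7 libraries at percentiles of 20.2 to 49.4. FET3, a multicopper oxidase, had one in 7 libraries, at 87.3 and 75.0 in WT, and its partner FTR1, an iron permease, in 6, at 69.4 and 42.1 in WT. The 4 combined-mutant libraries had no peak at FET3 or FTR1, and only 8.85 to 12.9% of nuclear genes had one in these libraries.

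The remaining copper genes had a peak in 1 to 4 libraries. HSF1 had a peak in 4 libraries, at most at 24.6, and CTR1, a copper importer, in 3 libraries at 29.3 to 50.5. CCS1, the copper chaperone for Sod1, had one in Sen1-AID replicate 1 and WT replicate 1, and FRE1, a metal reductase, in both WT libraries. CTR3, another importer, had one in h1D-h2D Sen1-AID replicate 2, at 47.4. No copper gene other than the CUP1 pair and CTR2 had a percentile above 90 in any library.

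Of 15 other tandem or near-tandem genes, 6 (40.0%) had a peak in at least 1 library, close to the 43.1% of all nuclear genes. The 9 with none were the ribosomal RNA genes RDN37-1, RDN37-2, RDN5-1 and RDN5-2, ASP3-1, ASP3-2 and ASP3-4, and the phosphatase genes PHO3 and PHO5. RDN5-6, a ribosomal 5S RNA gene that was not in the list and was looked up after its values were seen, was covered whole in 6 libraries, at percentiles of 63.3 to 99.9. ENA1 and ENA2, sodium pumps, had a shared value of 17.6 in h1D-h2D Top1-AID replicate 1, and ENA5 had 6.1 and 13.0 in WT. ASP3-3, an asparaginase gene at 482549–483637 of chromosome XII, had a peak in Top1-AID at 69.1 and in WT replicate 1 at 75.5. These peaks ran over 475789–482585 and 475729–482650, so they reached only the edge of ASP3-3. Both covered the 5S RNA gene RDN5-4 whole, which was not in the list either.

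The hexose transporter genes were the most often covered of this list. HXT6 had a peak in 8 libraries at percentiles of 27.5 to 62.8, among them both h1D-h2D libraries and neither WT library. HXT7 had one in the 3 Gal-HO libraries, at 17.6 and 64.8 in galactose and 81.2 in dextrose. No gene of this list had a peak in all libraries.

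**Figure D5:**
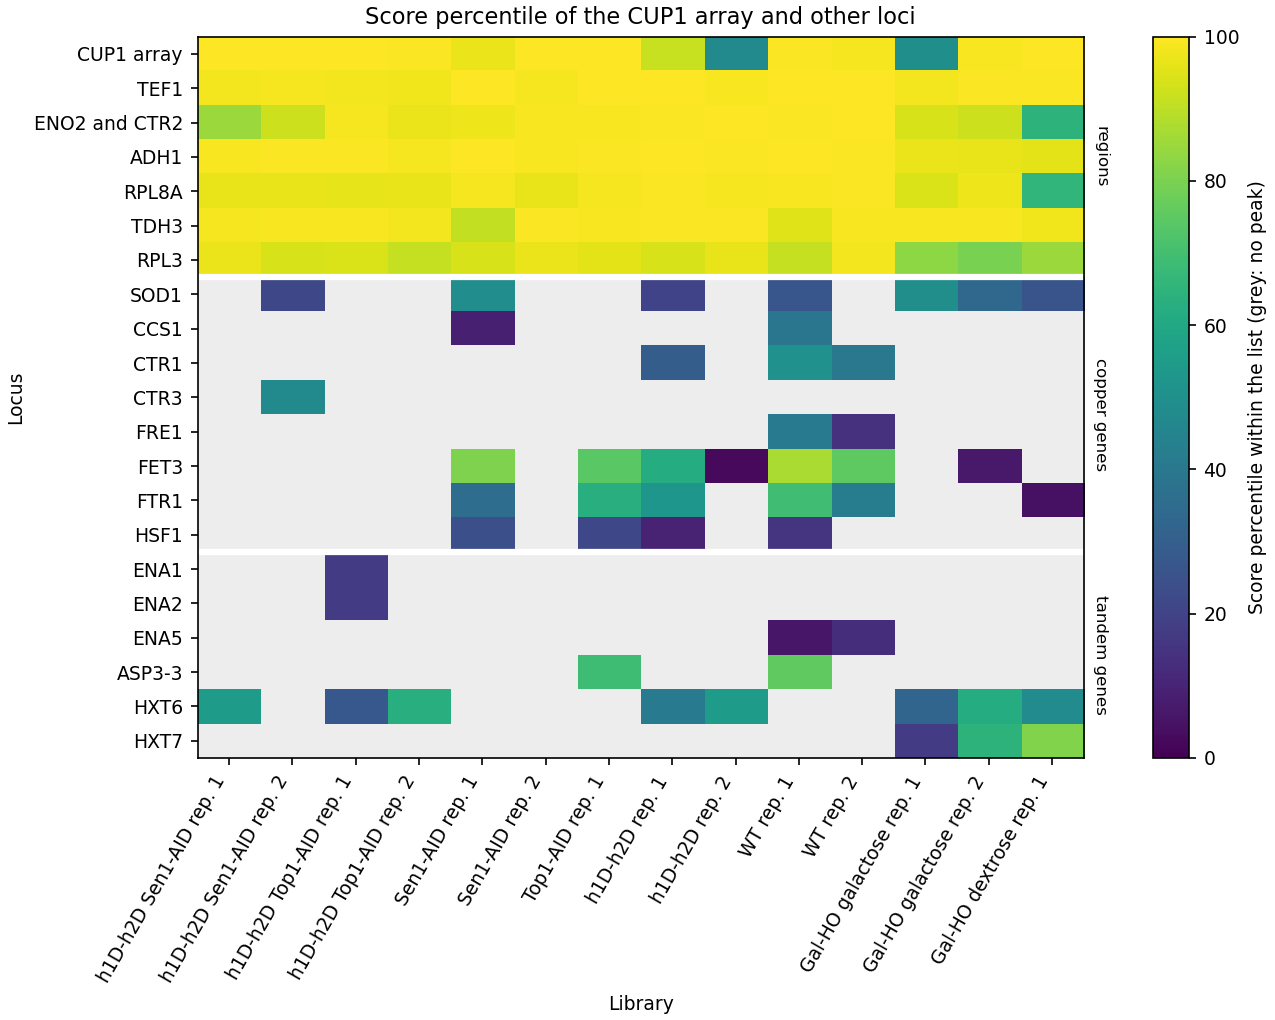
Score percentile within its list, by color, for the CUP1 array, 6 other strong regions, the copper genes and the tandem genes with a peak in at least 1 library (rows), in each of the 14 libraries (columns); grey means no peak, and CTR2 is in the ENO2 row. The array is dark only in h1D-h2D replicate 2 and Gal-HO galactose replicate 1, where the 6 other strong regions have percentiles of at least 83.0, and the lower rows are mostly grey.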

How the data were processed

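Peaks of Rad52 immunoprecipitation were analysed from 14 libraries. Per the submitters' processing notes, the authors used Bowtie2, MACS2 and the sacCer3 build; versions, any control library and the treatment of reads that match several places are not given in the sources used here, and the last bears directly on a tandem repeat. Each deposited list holds 1 library's peaks with a score per peak; its lowest value was 50.02 to 50.53 in every list. Scores were ranked only within a list. The lists hold no read depth. Positions were made 1-based, and 5 mitochondrial peaks were left out of 7181 in total.

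Genes came from the RefSeq table of assembly R64; all 35 names of the 2 lists matched. Peaks were merged across libraries at 1 bp of overlap. Exact permutation tests of mean covered length and of mean percentile (0 without a peak) enumerated every assignment of libraries to the 2 sides, with Benjamini-Hochberg adjustment over all regions; the code was tested on simulated data. Python 3.11.15, NumPy 2.4.6 and pandas 2.3.3 were used.

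The members, lists and tests were chosen with earlier results of these data known. Named are the members, genes within 5 kb of the window, listed genes with a peak, the 5 highest WT regions and the 5 regions most like the array; YEF3, RDN5-6, RNH1, RNH201, listed genes without a peak and the other regions were named after their values were seen. Alternatives changed the window, score limit, list length, joining and overlap of peaks, WT, the replicate block and the libraries. Sequences were not used here.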

Additional observations from a re-analysis of the deposited data

Results flagged for a closer look

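Single libraries far from the rest of their pool were sought in the pools of 4 to 6 libraries that the tests used, by Dixon's ratio, the gap to the nearest library over the pool's range, at its 95% critical value. Of 10 pools and measures, 8 held such a value. Chance flags about 1 in 20 groups of normally distributed values; the rate for percentiles, which are bounded near 100, was not measured. In 6 of them it was h1D-h2D replicate 2, with 3867 bp covered and percentile 47.3. The ratio was 0.815 and 0.844 in both pools of 5 libraries that hold it, and its percentile gave 0.845 among the 6 RNase H-deficient libraries. The same libraries enter several pools, so these are not separate observations. The others were h1D-h2D Top1-AID replicate 2, at percentile 99.4 among the combined mutants (ratio 0.969), and Sen1-AID replicate 1, at 97.1 among the Sen1-depleted libraries (0.940). In h1D-h2D Top1-AID replicate 2 the array had rank 2 of 254. It had rank 1 in every other combined-mutant library, where its percentiles differ only by list length.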

How the results depend on the processing

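None of the 100 alternative values passed the 0.05 threshold of the exact permutation test. With the window cut to the interval from the start of CUP1-1 to the end of CUP1-2, each of the 3 length differences was 0 bp, since every library covers it whole. Leaving out 1 library gave, for covered length and percentile, -15.2 to 197 bp and 2.63 to 15.8 points for the combined mutants, -33.8 to 179 bp and 1.38 to 14.5 points for Sen1 depletion, and -226 to -58.3 bp and -11.3 to -0.757 points for RNase H loss. The 2 reversals, -15.2 and -33.8 bp, came without h1D-h2D replicate 2. At the pooled median score (194.5) or with 254 peaks per list, that library and Gal-HO galactose replicate 1 lost the array peak. Under both settings the length differences became 914 bp for the combined mutants, 897 bp for Sen1 depletion and -828 bp for RNase H loss. The percentile differences became 22.5, 21.5 and -17.5 points at the median score, and 25.7, 22.0 and -17.2 points with equal lists. With the replicate number as a block the differences stayed 141 bp and 12.6 points (exact p = 0.783 and 0.300) for the combined mutants, 124 bp and 11.5 points (0.883 and 0.533) for Sen1 depletion, and -183 bp and -9.22 points (0.325 and 0.575) for RNase H loss. Replicate numbers were not taken as pairs in the main tests. Replicate differences of 2 groups correlated between 0.01 and 0.51 over regions, above 0.1 in 4 of 10 pairs of groups. The highest values were 0.51 for Sen1-AID and WT, 0.49 for h1D-h2D and WT, and 0.38 for Sen1-AID and h1D-h2D. Whether these groups share a replicate effect was not tested. Unknown depth, no known control and the unknown number of array copies limit all values.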
